A study of Equus caballus with 11 samples.

Results

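The comparison of lung with heart (LvsH) was described from 4 lung and 4 heart libraries, 8 of the 11 libraries of the series. Both tissues came from the same 4 stallions, healthy animals of a cold-blooded type between 1 and 2 years old. Lung was taken from the caudal lobe on the right side and heart from the left ventricle, and no treatment is given for either. The members were every CpG on chromosomes 1 to 31 that had 10 or more reads in all 8 libraries after both strands were combined. That rule left 116927 CpGs, 4.01% of the 2912411 CpGs listed in at least 1 of these libraries. Reduced representation bisulfite sequencing (RRBS) cuts the genome at CCGG and so reads its CpG-rich part, and bisulfite turns an unmethylated cytosine into a base read as T while a methylated cytosine is still read as C.

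Methylation of the cytosine in a CpG is copied after each cell division, and most CpGs of a mammalian genome outside CpG islands carry it. Dense CpG islands, many of them at promoters, are largely free of it in most tissues, while single CpGs and short stretches at enhancers often differ between cell types. The level at a CpG is the percent of reads with C, so an intermediate level can mean a mixture of methylated and unmethylated molecules. In whole tissue, a different share of a cell type and a different level within that cell type cannot be told apart. The libraries carried no gene expression values for a check of the tissue labels, and no CpG was assigned to a gene, because the files use EquCab3.0 and the only gene table used here is for a different horse assembly.

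Reads summed over chromosomes 1 to 31 ran from 8155920 to 22394586 in lung and from 7313414 to 23755358 in heart. The median depth at the tested CpGs was 16 to 35 reads in lung and 19 to 40 in heart, lowest in lung of horse 3 and heart of horse 4. Heart libraries held more mitochondrial reads, 2.44% to 5.71% of the listed reads against 0.141% to 0.842% in lung. The exact 2-sided permutation p was 0.0286 (n = 4 each), the smallest that this test, which leaves the pairing by horse out, can give. In heart of horses 1, 2 and 4, 2 mitochondrial positions each had reached the highest depth the files give, so these heart shares are lower bounds. At the listed mitochondrial CpGs, 0.613% to 1.69% of lung reads and 0.336% to 0.373% of heart reads were read as C (exact permutation p = 0.0286).

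Averaged over all CpGs, the tissues were close, and the excess in lung was largest in CpGs of intermediate level. Lung libraries averaged 69.5% ± 0.260 and heart libraries 68.9% ± 0.544 (mean ± SD, n = 4 each here and below), a difference of 0.632 percentage points (exact permutation p = 0.0571). Lung was higher in 3 of 4 horses, and horse 3 gave -0.178 points. Without heart of horse 1 the difference was 0.374 points, and without heart of horse 3 it was 0.792 (exact permutation p = 0.0286). CpGs were then divided into 5 classes by the mean of all 8 libraries, a rule that treats the tissues alike. In the 22427 CpGs at 30 to 70%, the lung libraries stood at 56.8%, 55.6%, 56.0% and 55.0% in horses 1 to 4, and the heart libraries at 52.3%, 53.5%, 53.7% and 52.9%. The tissues did not overlap in this class. Lung exceeded heart by 2.77 points there, from 2.07 to 4.54 points in single horses (exact permutation p = 0.0286, 0.0714 after Benjamini-Hochberg adjustment over the 5 classes).

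The 5309 CpGs at 10 to 30% showed a mean excess of 2.17 points in lung that the horses did not share. The difference was 4.31 points in horse 3 and -0.107 points in horse 2, and lung was higher in 3 of 4 horses (exact permutation p = 0.0857, adjusted 0.143). Without lung of horse 3 it was 1.43 points. At 70 to 90% the difference was -0.0212 points, from -1.90 points in horse 3 to 1.10 in horse 1 (exact permutation p = 0.971). At 90% or above it was -0.183 points (exact permutation p = 0.571, adjusted 0.714).

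Among the 12185 CpGs below 10%, the level typical of unmethylated islands, lung stood at 2.70%, 2.01%, 3.11% and 2.12% and heart at 1.80%, 1.99%, 1.87% and 1.78%. Lung was higher in every horse, but in horse 2 by 0.0151 points only, and the mean difference was 0.624 points (exact permutation p = 0.0286, adjusted 0.0714). Without lung of horse 3 it was 0.368 points. The share of mitochondrial reads read as C was also higher in lung, by 0.737 points, and its part in this difference was not tested. No class passed an adjusted p below 0.05, and with 4 libraries against 4 no class alone could go below 0.0286.

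The mean excess in lung was larger where CpGs lay closer together, with no density class past the test. Grouped by the number of other listed CpGs within 100 bp, the difference was 0.345 points with 0 to 2 neighbours, 0.661 with 3 to 5, 0.879 with 6 to 9, 1.08 with 10 to 14 and 2.43 with 15 or more. Lung was higher in all 4 horses in each class but the first, where horse 3 gave -1.04 points and the mean was 0.0816 points without heart of horse 1. The adjusted p was 0.429 in the first class and 0.0714 in each of the others (exact permutation tests, n = 4 each). In the densest class, heart stood at 40.9%, 43.5%, 41.4% and 44.4% in horses 1 to 4 and lung at 45.6%, 44.4%, 44.5% and 45.6%. The heart values of horses 1 and 3 were low, and the difference ran from 0.832 points in horse 2 to 4.66 in horse 1.

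**Figure D1:**
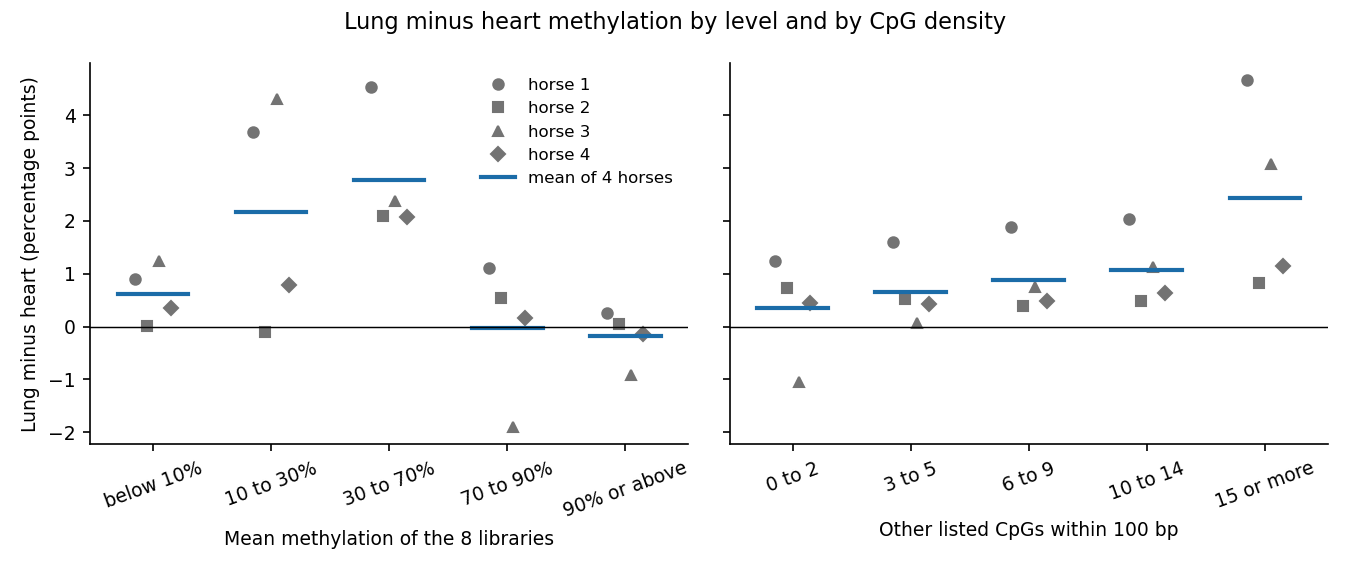
Lung minus heart methylation (percentage points) by the mean level of the 8 libraries, left, and by the number of other listed CpGs within 100 bp, right; grey symbols are the 4 horses and blue lines their mean. At 30 to 70% all horses lie between 2.07 and 4.54 points, while at 70 to 90% they run from -1.90 to 1.10.

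The difference varied over the classes of level and density combined. CpGs at 90% or above with 0 to 2 neighbours were lower in lung by 0.473 points on average, in all 4 horses, though the tissues overlapped. At the same level with 15 or more neighbours, lung was higher by 0.603 points in all 4 horses, with 94.9% ± 0.133 in lung and 94.3% ± 0.513 in heart. At 70 to 90% lung was lower by 0.451 points on average with 0 to 2 neighbours, and higher by 1.46 points with 10 to 14 and by 4.70 points with 15 or more, in all 4 horses in both. The last, 707 CpGs with 84.0% ± 0.715 in lung and 79.3% ± 5.06 in heart, held the largest difference of the 25 combinations of level and density. Below 10%, the excess in lung was 0.376 points with 0 to 2 neighbours and 0.329 with 3 to 5, in 3 of 4 horses in both, and 1.24 points with 15 or more, in all 4. At 30 to 70% lung was higher in all 4 horses in each density class, with class means of 2.31 to 4.07 points. The tissues overlapped with 10 to 14 and with 15 or more neighbours, the latter with 52.1% ± 4.27 in lung and 48.1% ± 5.67 in heart. These cells of level and density were not tested singly.

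Counted as moves between classes, more CpGs gained a level in lung than lost one in the middle of the range. Between heart and lung means, 6400 CpGs went from 30 to 70% up to 70 to 90%, and 4966 went the other way. From 10 to 30% up to 30 to 70% there were 2046, against 1266 in the reverse direction, and from below 10% up to 10 to 30% there were 1195 against 791. At the top the balance turned, with 8653 CpGs at 70 to 90% in heart and 90% or above in lung and 9869 in the reverse direction.

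Single CpGs were tested by a moderated quasi-likelihood test on methylated and unmethylated reads, and a CpG was called a differentially methylated site (DMS) when the tissues, weighted by depth, were 25 or more points apart and the adjusted p was below 0.01. Of all tested CpGs 2.71% were called, 3174 in number. Of these, 1801 were higher in lung (1.54% of tested CpGs) and 1373 lower (1.17%). With horse as a block no CpG passed this threshold, 19329 had an unadjusted p below 0.05, and limma on arcsine levels called 156 without the block and 0 with it. DMSs made up 8.69% of the class at 30 to 70%, where 60.3% were higher in lung. They made up 3.94% at 10 to 30%, with 64.1% higher, and 2.42% at 70 to 90%, with 48.4% higher. None lay below 10% or at 90% or above, where a difference of 25 points has little room.

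The DMSs with the widest gap between the tissues differed by 54.7 to 72.2 points, weighted by depth over the libraries. Their direction was the same in every horse, which the rule that picked them required. At chr16:1778853 lung read 78.0%, 76.7%, 88.9% and 79.2% and heart 10.9%, 9.76%, 14.8% and 14.8% in horses 1 to 4, with at least 18 reads in each library (depth-weighted difference 67.6 points, adjusted p = 7.48e-07). At chr29:31987555 the means were 88.0% ± 3.19 in lung and 21.0% ± 6.71 in heart, at chr3:20592426 82.5% ± 4.76 and 21.5% ± 3.40, at chr30:29003371 72.0% ± 4.81 and 8.78% ± 3.61, and at chr28:44225776 71.9% ± 5.51 and 15.6% ± 1.39 (SD, n = 4 each). All 5 of these CpGs were methylated in lung and largely free of it in heart.

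In the other direction, chr28:42730039 read 31.3%, 33.3%, 35.7% and 31.3% in lung and 95.5%, 100%, 93.3% and 100% in heart, with at least 13 reads (depth-weighted difference -64.5 points, adjusted p = 7.60e-06). The lung level was intermediate in each horse, and close in all 4. At chr6:86790890 the means were 21.8% ± 8.08 in lung and 89.2% ± 4.51 in heart, at chr6:41544478 12.4% ± 5.47 and 74.7% ± 4.06, at chr4:5643110 7.81% ± 5.21 and 77.0% ± 13.2, and at chr14:6188454 29.6% ± 7.14 and 91.8% ± 6.04. All 10 of these calls were kept when any library was left out, and all 10 were lost with horse as a block (adjusted p = 0.0762 for each). Limma on arcsine levels without the block also lost chr4:5643110 and chr14:6188454 at the 0.01 threshold (adjusted p = 0.0141 and 0.0138).

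A complete switch between the tissues was not seen at the tested CpGs. No CpG had every library of a tissue at 80% or above and every library of the other at 20% or below. By tissue means 3 CpGs met these limits, all methylated in lung, and they are named here after their values were seen. They were chr16:1778853, chr5:27113122 with 84.0% ± 9.43 in lung and 18.2% ± 7.85 in heart, and chr29:31987570 with 81.9% ± 11.5 and 17.3% ± 4.73. A difference of 50 points or more between the means was held by 117 CpGs higher in lung and 70 lower in lung.

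Much of the difference between the tissues lay in CpGs that were not called. The variance of a horse's own lung minus heart difference over CpGs was divided into a part shared between horses, taken from the covariance of different horses, a part from read sampling, and the rest. Shared differences made up 38.8% of it, read sampling 47.7% and the rest 13.4%. Each horse gave a single library per tissue, so differences between horses and between libraries cannot be told apart in the rest. The shared part had an SD of 9.05 points (8.52 to 9.45 over the horse pairs). It was widest at 30 to 70%, with an SD of 15.2 points, and narrow below 10% and at 90% or above, with 2.09 and 2.12 points. With the DMSs left out, 58.3% of the summed shared variance remained, an SD of 7.0 points. The DMSs were chosen on these same libraries, so that share describes this set of calls.

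The sign in each horse was also counted at CpGs without a call, as a description with no test. Of the 113753 CpGs not called, 13037 (11.5%) were higher in lung in all 4 horses and 11000 (9.67%) were lower in all 4. Lung and heart did not overlap at 5685 of them (5.0%) that were higher and 4881 (4.29%) that were lower in lung. Of all tested CpGs, 6.33% were higher and 5.30% lower without overlap. In the class at 30 to 70%, called or not, 22.4% of CpGs were higher in all 4 horses and 14.2% lower in all 4, against 12.7% and 10.6% of all tested CpGs.

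A difference found in 3 horses was then read in the horse that had not been used to find it. CpGs that differed by at least 25 points on average in 3 horses kept their sign in 87.7% to 94.5% of cases in the fourth, over the 4 horses and both directions. On average 68.9% to 86.0% of the size was kept. Horse 1 kept the most among CpGs higher in lung, with 28.9 points against 33.6 in the other 3 horses over 2964 CpGs, and its own mean over all CpGs was 1.61 points higher in lung. Horse 3 kept 23.9 of 33.6 points over 3323 CpGs, with a mean over all CpGs of -0.178 points. Among CpGs lower in lung the fourth horse showed differences of -22.6 to -25.7 points. Picked at 10 points instead, 75.9% of CpGs kept their sign. The CpGs were picked on values that carry sampling error, whose part in the loss of size was not tested.

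**Figure D2:**
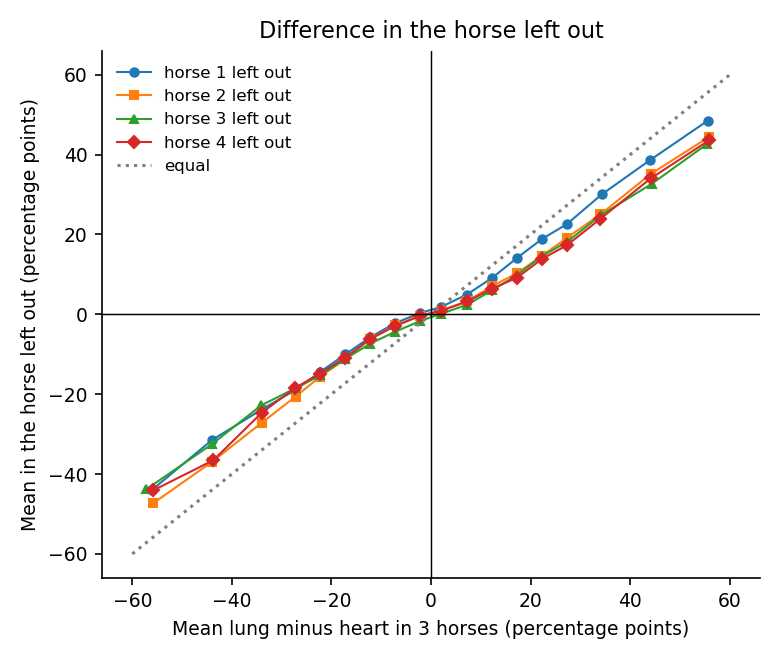
Mean lung minus heart difference (percentage points) in the horse left out, against the mean in the other 3 horses, for CpGs grouped by the latter; each line is a horse left out and the dotted line marks equal values. The lines lie between the dotted line and 0 at both ends, with horse 1 nearest to it among CpGs higher in lung.

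The 2 strands of a CpG are covered by different reads and give a second view of the same difference. At 2106 CpGs with 10 or more reads on each strand in all libraries, the difference on the forward and on the reverse strand correlated at r = 0.612, a description over CpGs that share libraries and depth. Of 28 CpGs with at least 25 points on the forward strand, 92.9% had the same sign on the reverse strand. In single horses r was 0.626 in horse 1 and 0.374 in horse 2, and 0.165 and 0.173 in horses 3 and 4. The median of the lowest strand depth was 32 and 37 reads in horses 1 and 2, and 20 and 17 in horses 3 and 4. At the 344 of these CpGs in the class at 30 to 70%, lung exceeded heart by 3.31 points on the forward strand and by 4.12 on the reverse.

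Neighbouring CpGs shared their lung minus heart difference over about 100 bp. To measure this without shared reads, the difference of a horse at a CpG was multiplied with that of another horse at a second CpG. The mean product was set against that at distance 0 over all tested CpGs. The CpGs paired at a distance can differ in make-up from that full set, and the part of this was not tested. The shared difference stood at 0.636 of the value at distance 0 at 2 to 10 bp, 0.661 at 11 to 25 bp, 0.622 at 26 to 50 bp and 0.498 at 51 to 100 bp. It then fell to 0.243 at 101 to 200 bp, 0.193 at 201 to 500 bp and 0.12 at 501 to 1000 bp. Over the 6 horse pairs the range was 0.469 to 0.537 at 51 to 100 bp and 0.200 to 0.315 at 101 to 200 bp, so these neighbouring distances did not overlap. Beyond 1000 bp it ran from 0.0587 down to 0.0178, and in all 6 horse pairs it was still above 0 at 50001 to 200000 bp, with 0.0236.

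A decay in percentage points was also seen around CpGs picked in 3 horses, but it differed between the directions. Tested CpGs within 25 bp of a CpG picked at 25 points higher in lung differed by 22.7 points in the horse left out (20.9 to 25.7 over horses), against 25.2 at the picked CpG itself. The mean was 18.8 points at 51 to 100 bp, 12.3 at 101 to 200 bp, 8.77 at 201 to 500 bp and 3.32 at 501 to 1000 bp. At 5001 to 10000 bp it was 0.365 points, near the mean of all CpGs. Around CpGs picked lower in lung the mean was -20.3 points within 25 bp, -19.2 at 51 to 100 bp and -19.1 at 101 to 200 bp. On this side the mean over all pairs thus barely changed from 51 to 100 bp to 101 to 200 bp. The mean was -13.6 points at 201 to 500 bp and still -12.5 at 501 to 1000 bp.

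At 501 to 1000 bp, that longer reach on the lower side came in large part from a single stretch. Of all pairs at 501 to 1000 bp from CpGs picked lower in lung, 52.9% lay in a cluster of 158 CpGs on chromosome 12, and without it the mean over the remaining 1399 pairs was -6.34 points. Counting each cluster of CpGs equally, the means at this distance were -4.75 points on the lower side and 2.38 on the higher side. Counted so at shorter distances, they were -13.2 and 10.5 points at 101 to 200 bp and -9.27 and 6.90 at 201 to 500 bp. The lower side thus stayed larger in size at these distances. Counted so, the lower side stood at -15.6 points at 51 to 100 bp, so it was smaller in size at 101 to 200 bp. Within the cluster on chromosome 12, chosen after its values were seen, a stretch was cut from the first to the last CpG lower in lung by at least 25 points. This stretch, chr12:22996340-23013526, held 83 tested CpGs, 24 of them lower by at least 25 points. Its ends were set by these values, which favours a lower level in lung by construction. The mean level of the stretch was 66.1%, 65.7%, 69.0% and 66.5% in lung and 75.2%, 83.4%, 81.5% and 82.5% in heart, with no overlap between the tissues. Of the 83 CpGs, 66 were lower in lung.

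**Figure D3:**
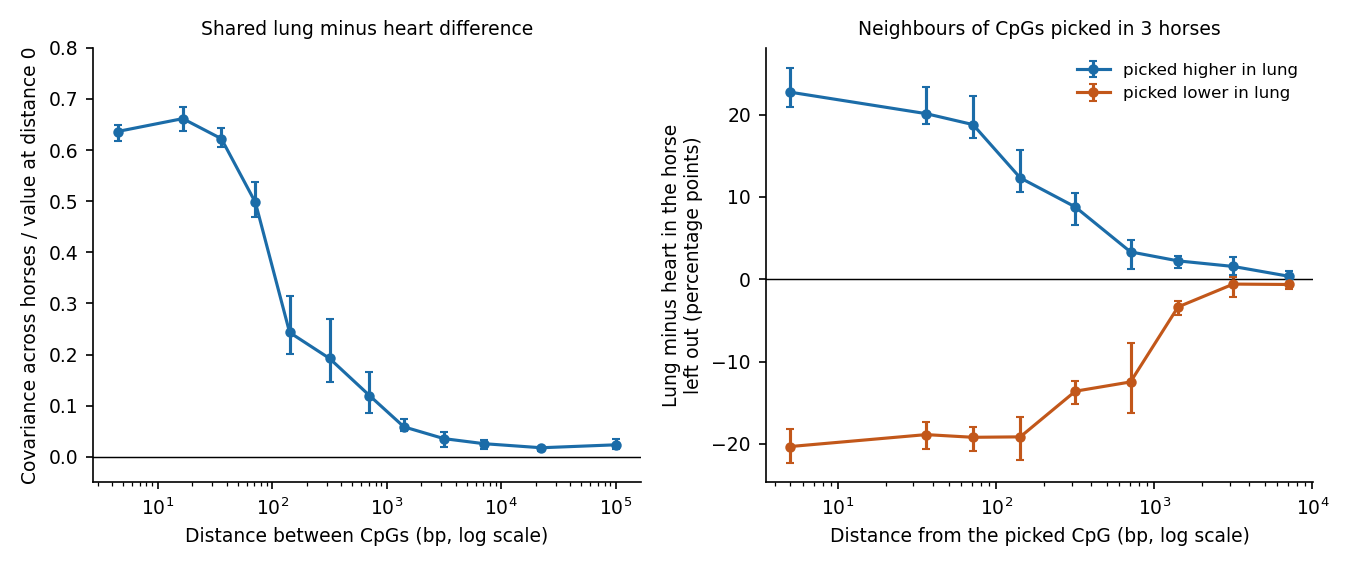
Left, covariance of the lung minus heart difference between different horses at CpGs a given distance apart, divided by its value at distance 0 over all tested CpGs (bars: range over 6 horse pairs). Right, mean lung minus heart difference (percentage points) in the horse left out, at neighbours of CpGs picked in the other 3 horses at 25 points (bars: range over 4 horses); distance is on a log scale. The shared difference falls from 0.498 at 51 to 100 bp to 0.243 at 101 to 200 bp.

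Since neighbours moved together, reads were summed over regions, runs of at least 5 tested CpGs each at most 100 bp from the next, and tested in the same way. A region was called at 10 or more points and an adjusted p below 0.05. Of 3750 regions, 7.04% were called, 264 in number, 145 higher in lung (3.87%) and 119 lower (3.17%). Of the called regions 128 held no DMS, 67 of them higher and 61 lower in lung. Their median absolute difference was 16.05 points. A DMS had to reach 25 points and an adjusted p below 0.01, so both thresholds were stricter for a single CpG than for a region. In 119 of them all 4 horses had the same sign, against 1146 of all 3750 tested regions. The call used the same libraries, which favours such agreement by construction. Among the regions that hold no DMS, 3.56% were called. Without lung of horse 1, 171 regions were called and 83 of the regions without a DMS. With horse as a block 313 were called by the same test, and limma on mean levels called 182 without the block and 145 with it.

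Regions of low and intermediate level were called most often. Of 170 regions at 10 to 30%, 24.1% were called, and of 538 at 30 to 70%, 19.7%, against 8.16% of 1348 at 70 to 90%. Below 10%, 6 of 794 regions were called, and at 90% or above 1 of 900. At 30 to 70%, 63.2% of the called regions were higher in lung, and at 10 to 30%, 48.8%.

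Of the regions without a DMS, the 6 with the largest difference in each direction were followed in every library. The largest difference of a single CpG in them was 26.2 to 38.4 points, above the 25 points asked of a DMS. The smallest adjusted p of a CpG in them was 0.0102 to 0.0333 (quasi-likelihood test), above the 0.01 asked of a DMS. At chr1:1246076-1246137, 6 CpGs averaged 79.2%, 86.7%, 75.8% and 76.7% in lung and 53.6%, 58.9%, 43.1% and 61.7% in heart (difference 25.3 points on mean levels, adjusted p = 0.0105). At chr8:11409594-11409648, 5 CpGs averaged 40.6%, 32.6%, 50.9% and 30.0% in lung and 11.5%, 13.9%, 10.8% and 18.7% in heart (24.8 points, adjusted p = 0.00593). At chr7:3843850-3843890, 5 CpGs averaged 72.1%, 79.6%, 81.1% and 78.6% in lung and 56.7%, 49.5%, 55.0% and 44.5% in heart (26.4 points, adjusted p = 0.00567). Lung and heart did not overlap in these 3 regions, every CpG was higher in lung, and the call was kept without any single library. With horse as a block the quasi-likelihood test kept all 3, and limma on mean levels lost the region on chromosome 8 (adjusted p = 0.0669).

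The region chr31:2965478-2965505 had the widest difference in means, 33.0 points, with 61.5% ± 10.4 in lung and 28.6% ± 7.69 in heart (adjusted p = 0.0253), but 6 of the 8 fits that left out a library lost the call. Its tissues did not overlap. At chr13:31455803-31455870 lung stood at 88.1%, 90.6%, 60% and 93.3% and heart at 57.5%, 53.0%, 67.1% and 55.9%, so horse 3 went the other way (adjusted p = 0.0458, call lost in 7 of 8 such fits, and adjusted p = 0.0522 with horse as a block). At chr20:35353398-35353459 horse 4 went the other way, with 56.7% in lung and 58.9% in heart, and the means were 67.7% ± 9.13 and 45.0% ± 9.62 (adjusted p = 0.0189, call lost without lung of horse 1 or heart of horse 2).

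Lower in lung, chr14:19232354-19232392 averaged 71.4%, 63.3%, 61.8% and 41.3% over 5 CpGs in lung and 89.2%, 88.4%, 84.6% and 85.7% in heart (difference -27.5 points, adjusted p = 0.0159), with the call kept without any single library. At chr1:28963113-28963171, 7 CpGs averaged 29.0% ± 8.95 in lung and 53.4% ± 8.61 in heart (adjusted p = 0.0126, 0.0556 without lung of horse 1). At chr5:43794736-43794799, 6 CpGs averaged 52.4% ± 6.55 and 77.3% ± 8.55 (adjusted p = 0.0189, call lost without lung of horse 1 or heart of horse 2). In each of these 3 regions every CpG was lower in lung and the tissues did not overlap.

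The other 3 regions on the lower side kept their direction but not their call. Without single libraries their depth-weighted differences ran from -29.4 to -20.2 points on chromosome 22, -26.6 to -17.5 on chromosome 20 and -32.2 to -17.2 on chromosome 7. The call was lost in 5 of 8 fits for chr22:38070122-38070189 (21.3% ± 9.92 in lung, 45.6% ± 8.47 in heart) and in 6 of 8 for chr20:37736909-37736968 (48.7% ± 16.5 and 75.6% ± 3.86). It was also lost in 6 of 8 for chr7:3456441-3456490, where lung of horse 1 stood at 79.1% against 77.5% in heart, and the other 3 horses at 48.7%, 66.1% and 50.9% in lung against 87.1%, 87.6% and 94.7%. With horse as a block the quasi-likelihood test kept the regions on chromosomes 22 and 20 (adjusted p = 0.0166 and 0.0274) and lost that on chromosome 7 (0.0546). Of the 12 regions described, limma on mean levels lost 6 without the block and 7 with it.

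**Figure D4:**
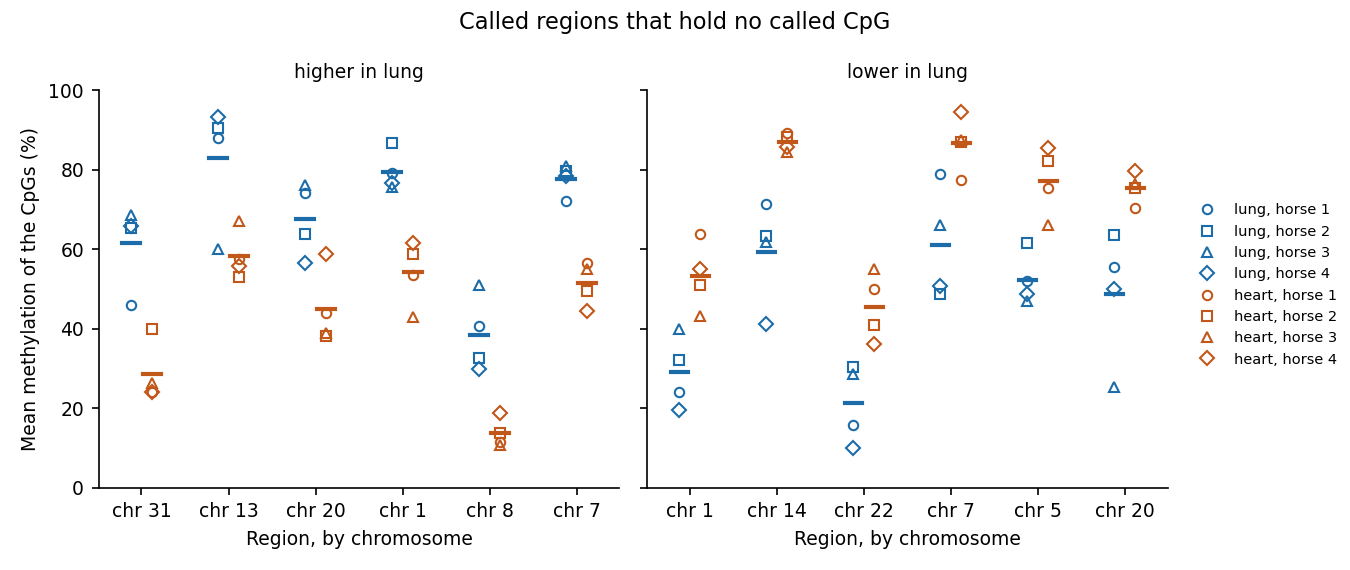
Mean methylation (%) of the CpGs of 12 called regions that hold no called CpG, those with the largest difference in each direction; open symbols are the libraries of horses 1 to 4, short lines the tissue means, blue lung and orange heart. Lung and heart are apart in 9 of the 12 regions and overlap on chromosomes 13 and 20 on the left and on chromosome 7 on the right.

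On a scale of 1 Mb, small differences of either sign were shared by the horses. The 1797 bins with at least 20 tested CpGs, 94.4% of the tested CpGs, had a median difference of 0.493 points, and 58.1% were higher in lung. Limma called 18.5% of the bins at an adjusted p below 0.05, 333 in number, 212 higher and 121 lower in lung. With each library set to its own mean over all CpGs, 346 bins were called and 43.6% of them were higher in lung, against 63.7% on the levels as measured. This centring removes the mean offset between the tissues by construction. With horse as a block 368 bins were called.

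The shared part of the bin differences had an SD of 2.37 points. The differences of 2 horses correlated at r = 0.439 to 0.60 over the 1797 bins, as a description of bins that share libraries. All 4 horses were higher in lung in 465 bins and lower in 293. With the DMSs left out, 104 of 1771 bins were called, against 333 of 1797 with them. Of the 333 called bins 58 held no DMS, while 1138 of all 1797 bins held at least 1. Both directions of DMS occurred together in 369 of the 1138 bins that held any. Bins 1 Mb apart shared little, with a covariance between horses of 0.0751 of the own-bin value.

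**Figure D5:**
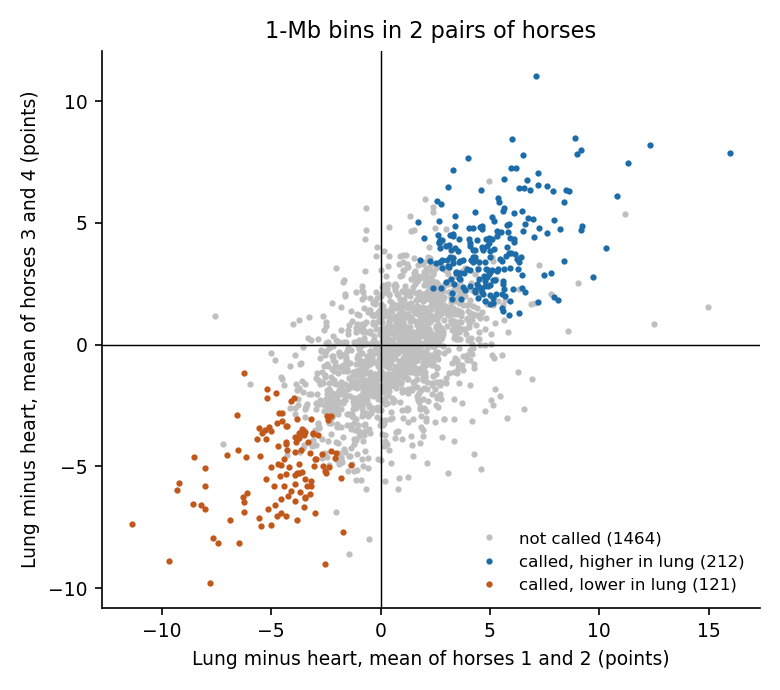
Lung minus heart difference (percentage points) of the 1797 bins of 1 Mb, mean of horses 1 and 2 against mean of horses 3 and 4; each point is a bin, blue and orange those called by limma on all 8 libraries, 212 higher and 121 lower in lung. Called bins lie in the upper right and lower left, since the call used the same libraries.

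The bins with the largest differences moved by means of 7.81 to 11.9 points, with the same sign in all 4 horses. Single horses could differ far less. In chr5:50000001-51000000, horse 1 stood at 53.9% in lung and 55.2% in heart. In chr27:34000001-35000000, 27 CpGs averaged 74.6%, 71.9%, 68.2% and 69.2% in lung and 58.7%, 55.9%, 61.9% and 59.8% in heart (11.9 points, SE 1.51, adjusted p = 0.00116). Without its 7 DMSs the difference was 2.62 points. DMSs were called on these same libraries for a large difference, so leaving them out lowers the difference of such a bin by construction. In chr18:39000001-40000000, 25 CpGs averaged 76.5% ± 3.26 in lung and 66.2% ± 3.09 in heart (adjusted p = 0.00290), and without its only DMS the difference was still 8.05 points.

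The bins chr1:75000001-76000000 and chr10:30000001-31000000 were higher in lung by 9.39 and 9.07 points (adjusted p = 0.00140 and 0.00116), and by 4.11 and 2.97 points without DMSs. In chr7:100000001-101000000, 57 CpGs averaged 60.4%, 62.4%, 61.4% and 65.3% in lung and 73.2%, 72.3%, 68.8% and 72.6% in heart (-9.36 points, SE 1.25, adjusted p = 0.00116), and -4.97 points without its 8 DMSs. The bins chr3:89000001-90000000, chr5:50000001-51000000 and chr8:50000001-51000000 were lower in lung by means of -9.29, -8.78 and -7.81 points, and of -5.78, -6.17 and -5.17 points without DMSs. All 8 named bins were called without any single library, and with the DMSs left out only the bins on chromosomes 18 and 7 were.

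Whole chromosomes differed in the same direction but not past the test. Lung was higher on 30 of 31 chromosomes, by a median of 0.554 points, and in all 4 horses on 11 of them. Without heart of horse 1 it was higher on 22, and with at least 20 reads on 24. The tissues did not overlap on 8 chromosomes, each with an exact permutation p of 0.0286, and after adjustment over 31 chromosomes the smallest p was 0.111, so no chromosome was called. Chromosome 13 had the largest difference, 1.95 points, with 71.6% ± 0.263 in lung and 69.6% ± 1.55 in heart, and heart of horse 1 stood lowest at 67.4%. Chromosome 14 was the exception, with -0.0807 points.

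Disagreement between reads of the same CpG did not differ between the tissues beyond the spread of the libraries over all CpGs. The chance that 2 reads drawn at a CpG differ was 24.0% ± 0.786 in lung and 23.7% ± 0.496 in heart over all CpGs (exact permutation p = 0.543). Below 10%, the class in which the mean level was also higher in lung, it was higher in lung by a mean of 1.13 points (exact permutation p = 0.0286, adjusted 0.171 over 6 tests). Lung was higher in all 4 horses, from 0.0538 points in horse 2 to 2.22 in horse 3. At 30 to 70% the chance of disagreement was 44.8% ± 0.386 in lung and 45.1% ± 0.222 in heart (exact permutation p = 0.257).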

How the data were processed

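Genomic DNA of lung and heart was measured by RRBS (Ovation RRBS Methyl-Seq System, single-end reads). Filtered reads were mapped by the authors to EquCab3.0. The submitters' processing notes name FastQC and BSMAP, with no version stated for the RRBS reads. Per cytosine and strand, the deposited files list read counts (coverage, at least 5 reads) and the percent of C and of T, per the file headers. Methylated reads were coverage times percent C, and at least 99.8% of positions gave a whole number within 0.05 points. Strands were combined.

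Sites and regions were tested by logistic regression with tissue as the only term, and the Pearson dispersion was moderated as limma 3.58.1 does in squeezeVar, with a floor of 1, before a quasi-likelihood F test, whose p was adjusted by Benjamini-Hochberg. CpGs with a pooled level under 2% or over 98% took no part in the prior. Mean levels of bins with at least 20 CpGs were tested in limma with a trend. Class, chromosome and disagreement values were tested by exact 2-sided permutation. Python 3.11.15, numpy 2.4.6, scipy 1.17.1, pandas 2.3.3, R 4.3.3 and matplotlib 3.10.9 were used, and the tests were checked on simulated data. Reads at a position may be PCR copies, so depth overstates independent molecules.

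Named were the 5 DMSs per direction with the widest gap between tissue ranges, 1 per 1000 bp, the 6 called regions per direction without a DMS and the 4 called bins per direction with the largest difference. Members, classes and rules were chosen with earlier results of these data known. The variance parts, the neighbours of picked CpGs, the moves between classes, the switch limits, the cross of level and density and the mitochondrial comparison were added after the files were seen. The labels give lung and heart of the same horse the same number. How far same-numbered libraries lay from their tissue means correlated at 0.0513 to 0.231 within a horse and at -0.0975 to -0.00814 between horses, so horse was run as a replicate block. The mitochondrial ratio without each library was also added. Other alternatives were depth, density and size limits, weighting, centring and leaving out each library. Liver, genes and sequences were not analysed here.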

Additional observations from a re-analysis of the deposited data

Results flagged for a closer look

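Of 94 groups of 4 libraries checked for a library far from the other 3, 5 exceeded Dixon's 95% limit for the gap to the nearest library over the whole range, where chance flags about 1 in 20. Heart in the class at 10 to 30% had a gap ratio of 0.841, with horse 2 at 19.6% and the others at 18.5% to 18.7%. Lung at chr4:5643110 had 0.969, with horse 3 at 0% and the others at 10.2% to 10.5%. Lung in chr31:2965478-2965505 had 0.851, with horse 1 at 46.1% and the others at 65.4% to 68.8%, and heart in the same region had 0.855, with horse 2 at 40% and the others at 24.0% to 26.3%. Lung in chr13:31455803-31455870 had 0.844, with horse 3 at 60% and the others at 88.1% to 93.3%.

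Mitochondrial reads were outside the comparisons of CpGs on chromosomes 1 to 31, and their share of the listed reads was at least 9.19 times higher in heart than in lung, 3.52% ± 1.5 against 0.383% ± 0.328 (SD, n = 4 each, exact permutation p = 0.0286). It is a lower bound, since 2 positions each in heart of horses 1, 2 and 4 were at the highest depth the files give and none was in lung. Without single libraries the ratio was 7.28 to 15.3, the highest without lung of horse 4.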

How the results depend on the processing

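The counts moved with the test, the block, the depth and the thresholds. With at least 20 reads, 755 of 27220 sites (51.7% higher in lung), 30 of 783 regions and 66 of 229 bins were called. The main fits called 3174 of 116927 sites, 264 of 3750 regions and 333 of 1797 bins. At 10 points and adjusted p below 0.05, 8959 sites were called. Regions of at least 3 CpGs gave 1714 calls among 15274. Bins of at least 50 CpGs gave 179 among 801 (74.3% of the calls higher in lung), and bins without DMSs 104 among 1771. With the replicate block by horse, the quasi-likelihood test called 0 sites and limma on arcsine levels 0 sites (20383 at an unadjusted p below 0.05), against 156 in limma without the block, all 156 of them called by the main test, and limma called 145 regions. The block gave 313 regions by quasi-likelihood, 368 bins, 0 chromosomes, and p of 0.125 at the lowest in sign flips of classes, which cannot go lower. Leaving out each library gave 2184 to 2802 sites, 171 to 230 regions, 83 to 123 regions without a DMS, 232 to 333 bins and 0 chromosomes, with lung higher on 22 to 31 of the 31 chromosomes.

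The class at 70 to 90% turned to 0.249 points with at least 20 reads and to 0.50 when weighted by reads, and ran from -0.368 to 0.40 without single libraries, as the class at 90% or above did from -0.558 to 0.116. The class below 10% ran from 0.368 to 0.728, that at 10 to 30% from 1.43 to 2.57, that at 30 to 70% from 2.23 to 3.22 and the mean over all CpGs from 0.374 to 0.792. Weighted by reads, the classes below 10%, at 10 to 30% and at 30 to 70% were at 0.998, 2.03 and 2.97 points and passed (adjusted p = 0.0476 each, exact permutation). So did the density classes of 3 to 5, 6 to 9 and 10 to 14 with at least 20 reads, at 0.746, 0.75 and 1.18 points. Without single libraries the density classes ran from 0.0816 to 0.578, 0.416 to 0.845, 0.645 to 0.988, 0.887 to 1.28 and, with 15 or more neighbours, 1.87 to 3.05 points, past the threshold in 3 classes each without heart of horse 3 or 4. With at least 20 reads the decay was 0.422 at 51 to 100 bp and 0.173 at 501 to 1000 bp, and at 10 points 75.9% of picked CpGs kept their sign. The disagreement index turned at 70 to 90% to -0.128 with at least 20 reads, and changed sign without single libraries over all CpGs (-0.0212 to 0.593), at 30 to 70% (-0.642 to 0.147), at 70 to 90% (-0.254 to 0.766) and at 90% or above (-0.170 to 0.936). The cause of these changes was not tested.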
